A study of Mus musculus with 6 samples.

Results

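Clustered protocadherins are cell surface proteins of the cadherin superfamily whose genes lie side by side in 3 clusters, alpha, beta and gamma. Every deposited gene whose symbol begins with Pcdha, Pcdhb or Pcdhg was taken as a member, which gave 52 of the 23594 genes: 9 alpha, 21 beta and 22 gamma genes. The data came from the furcation development region (FDR), where the roots of a multi-rooted tooth are divided from each other. Its apical tissue was laser-captured from mandibular first molars of mice at postnatal day 4.5. There were 3 control libraries, labelled as wild type on the C57BL/6 strain, and 3 Lhx6-/- libraries from mice homozygous for an Lhx6-CreER knock-in allele, which removes the function of the transcription factor LHX6 throughout the animal and from the start of development. Each library pooled tissue of several molars, so a replicate here was a pool, and the make-up of a pool by animal and by sex was not given. All libraries were single-end RNA-seq, and the comparison asked how the loss of Lhx6 altered expression in this region.

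In an alpha or gamma gene, a long variable exon, which encodes the whole extracellular part, the membrane span and part of the tail, is spliced to short constant exons that all genes of the same cluster share. Each beta gene is its own exon and has no shared tail. In neurons, where these proteins are best known, each cell transcribes a few variable exons chosen from its own promoters while the C-type genes at the end of the alpha and gamma clusters are used more widely. The proteins bind like copies on neighbouring cells and are known for self-avoidance of neurites and for the survival of interneurons and spinal neurons, and gamma protocadherins have also been described outside the nervous system.

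In the authors' table the alpha members lay on chromosome 18 (mm10) from 36939205 to 37187661, the beta members from 37294812 to 37524479 and the gamma members from 37661793 to 37841873. The alpha members ended together at the constant exons, as did the gamma members. The sharing of sequence differed between the clusters, and it set how far a count could be tied to 1 gene. In the GENCODE vM21 transcripts, 33.0% to 59.3% of all 75-base words of an alpha gene, the length of a read here, also occurred in another member. The range was 26.4% to 63.8% for gamma genes and 0% to 8.96% for beta genes. The deposited values were estimated counts, in which a read that fits several genes is divided between them. None of the 132 gamma values was within 0.01 of a whole number, against 26 of 126 beta values and 21 of 54 alpha values. In no alpha gene did such values outnumber the estimated zeros. Pcdha11 and Pcdhac2, the alpha genes without a 0, had none. Counts of a single alpha or gamma gene were therefore read with care, and the rounded counts were also summed by cluster. Of the genes that GENCODE vM21 annotates in the clusters, 5 were not analysed here: Pcdha1, Pcdha6, Pcdha8, Pcdhac1 and Pcdhb1.

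The 6 libraries held 60132323 to 76157433 estimated counts, and the clusters together took 0.0444% of all counts. Lhx6, the targeted gene, was at 27.8, 18.2 and 21.9 CPM (counts scaled to library size, with TMM factors) in the control libraries and at 12.8, 9.82 and 10.5 CPM in the Lhx6-/- libraries. It was lower in every Lhx6-/- library, with a log2 fold change of -1.04 ± 0.16 (SE) and an adjusted p of 0.0210 in edgeR's quasi-likelihood test. With the Y-linked level as a covariate the log2 fold change was -0.62 (adjusted p = 0.115 in edgeR), and the adjusted p was 0.111, 0.110 and 0.0772 in edgeR without control replicate 3, Lhx6-/- replicate 2 and Lhx6-/- replicate 3. The transcript was thus still counted in the Lhx6-/- libraries. Xist, which females transcribe, was at 792, 411 and 628 CPM in the control libraries and at 290, 0.228 and 0.0537 CPM in the Lhx6-/- libraries. The summed Y-linked genes were at 17.4, 58.0 and 14.6 CPM in controls and at 55.1, 92.1 and 88.5 CPM in Lhx6-/-. The pools thus differed in their share of males, and sex and genotype cannot be fully told apart.

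The clusters were used at very different levels. Gamma genes gave 86.2% of the summed CPM of all members as a mean over the 6 libraries, beta genes 12.5% and alpha genes 1.32%. Within gamma, Pcdhgc3 and Pcdhgc4 alone gave 76.3% of the sum. These C-type genes lie at the end of the cluster, Pcdhgc3 at chr18:37806364-37841873 and Pcdhgc4 at chr18:37815079-37841873. Their mean levels were 26.2 CPM per kilobase of annotated exon each, against a median of 0.827 over all gamma members. Pcdhgc5, the last C-type gene, was at 0.758 CPM per kilobase, the same range as the other gamma genes. In the alpha cluster, the C-type gene Pcdhac2 (chr18:37143503-37187657) was at 0.627 CPM per kilobase, with a median of 0.0410 over alpha members, and gave 63.4% of the alpha sum. All 22 gamma genes and 19 of 21 beta genes had a mean of at least 1 CPM, while Pcdhac2 was the only alpha gene to reach it.

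**Figure D1:**
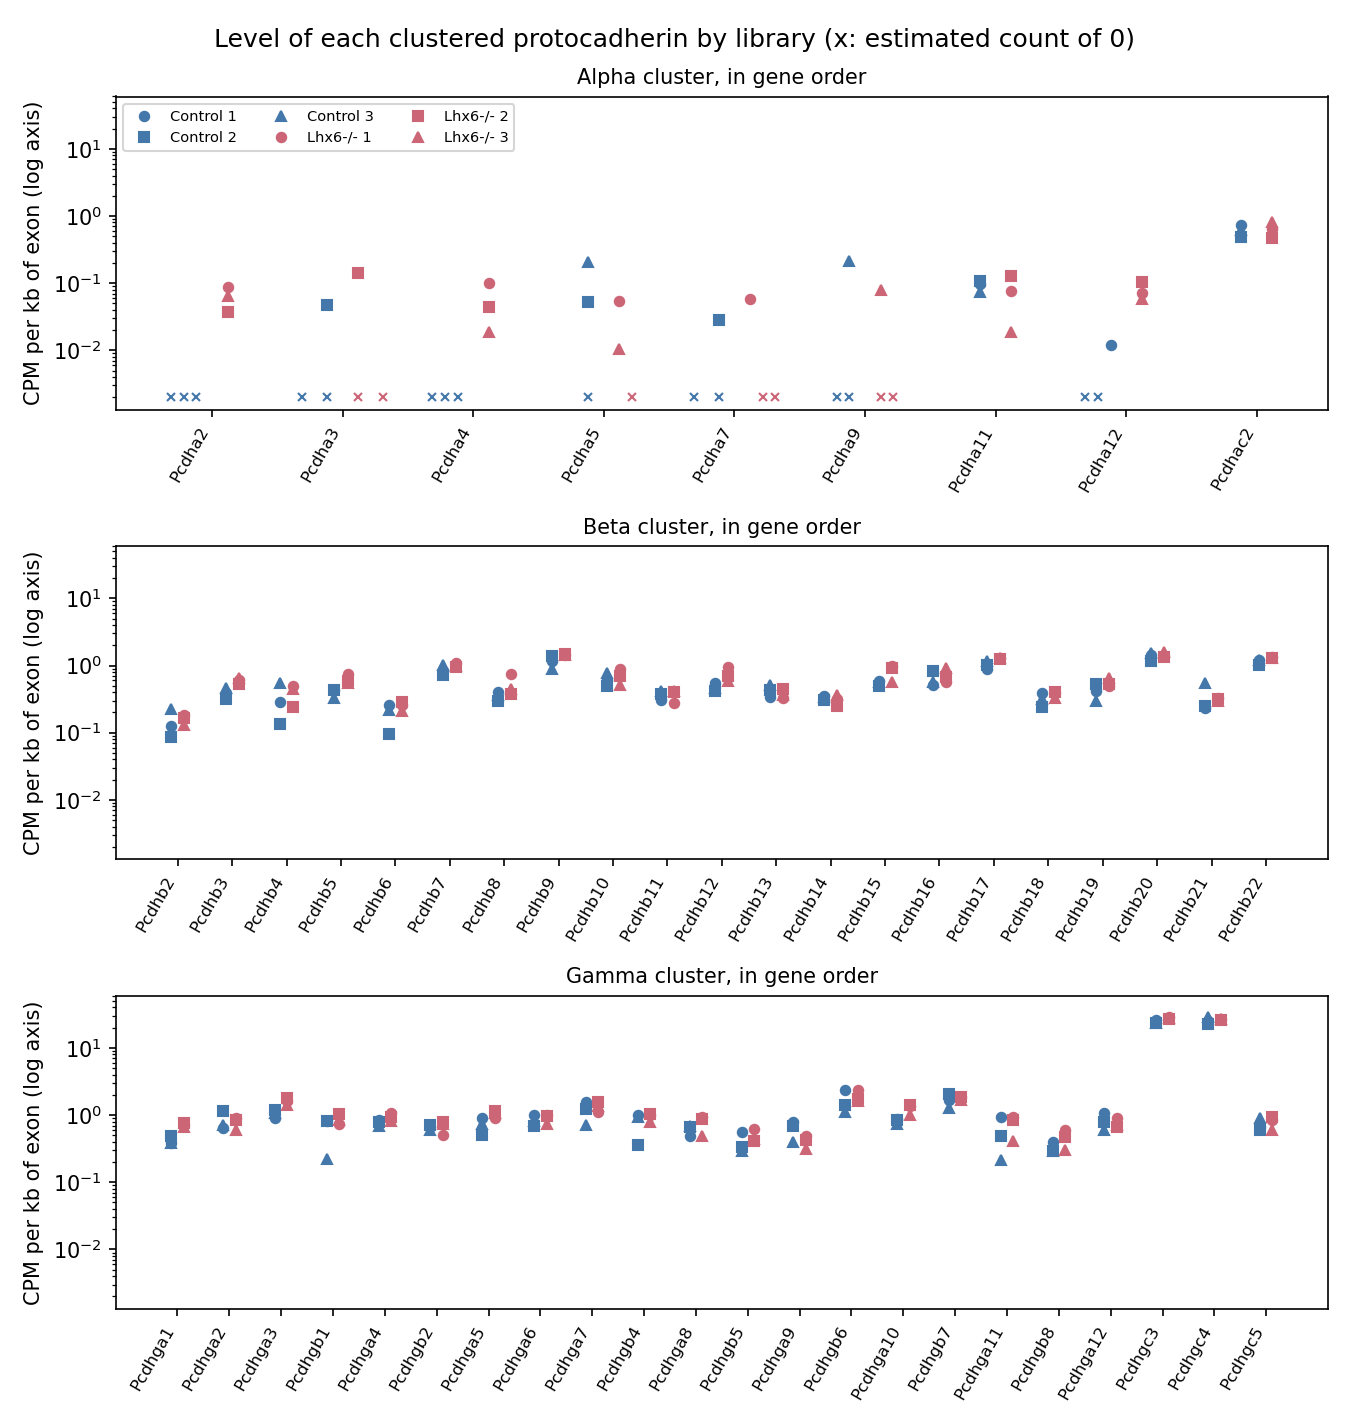
The level of each of the 52 members in every library, in CPM per kilobase of annotated exon on a log axis, with members in gene order and a panel for each cluster. Pcdhgc3 and Pcdhgc4 stand at about 26.2 CPM per kilobase, the beta and other gamma members lie between 0.154 and 1.76 on average, and crosses mark alpha values listed at an estimated count of 0.

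The level followed the order of the genes only in part. Between start position and level per kilobase, Spearman's rho was 0.62 over the 9 alpha genes and 0.31 over the 21 beta genes. It was -0.084 over the 19 gamma A and gamma B genes. The points of each correlation come from the same libraries and share reads, so these values are descriptions. Pcdhb22, the last beta gene, had the highest CPM of its cluster, at a mean of 8.08 CPM. Pcdhb20 was highest per kilobase, at 1.41 CPM per kilobase, and Pcdhb2, the first, was lowest at 0.154.

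The counts of Pcdhgc3 and Pcdhgc4 were nearly equal in every library but control replicate 3. Pcdhgc3 amounted to 102%, 99.6% and 81.2% of Pcdhgc4 in the control libraries and to 105%, 104% and 101% in the Lhx6-/- libraries. Of the 75-base words of Pcdhgc3, 37.2% also occur in Pcdhgc4, and 36.6% in the other direction. As many, 37.3%, also occur in Pcdhgc5, which was at only 0.758 CPM per kilobase. How far the division of shared reads made the levels of Pcdhgc3 and Pcdhgc4 alike was not tested.

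The summed beta level was higher in every Lhx6-/- library than in any control library. The control libraries were at 49.7, 47.7 and 54.2 CPM, a mean of 50.5 ± 3.36 (SD, n = 3). The Lhx6-/- libraries were at 62.1, 58.0 and 60.2 CPM, a mean of 60.1 ± 2.03 (SD, n = 3). The log2 fold change of the sum was 0.25 ± 0.073 (SE), a 1.19-fold difference. The gamma sum did not overlap either, at 384, 340 and 360 CPM against 418, 398 and 391 CPM, and its log2 fold change was 0.16 ± 0.076 (SE). The alpha sum overlapped between the groups, at 5.38, 4.64 and 6.56 CPM against 6.53, 5.81 and 6.18 CPM, with a log2 fold change of 0.16 ± 0.17 (SE). No p is given for a sum over members. With the level of the Y-linked genes as a covariate, the log2 fold changes became 0.38 for beta, 0.27 for gamma and 0.50 for alpha, and leaving out control replicate 2 brought the alpha value to 0.050.

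**Figure D2:**
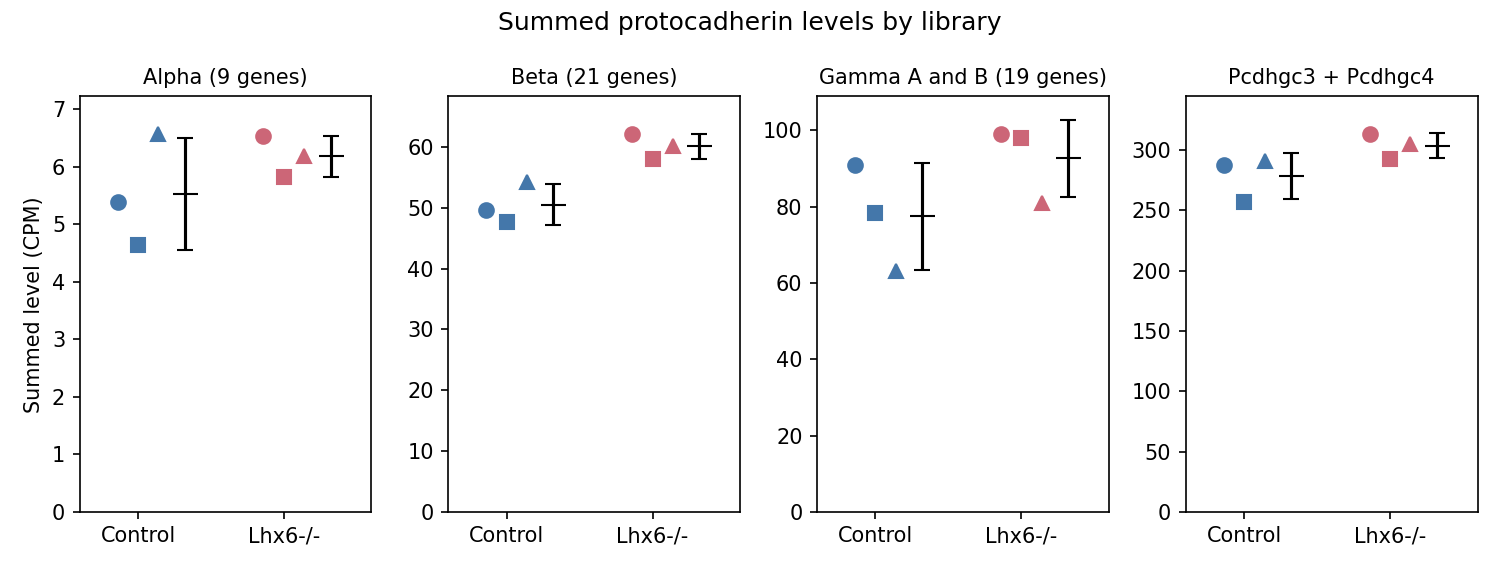
Summed levels in CPM (axes from 0) of the alpha genes, the beta genes, the gamma A and B genes and the pair Pcdhgc3 and Pcdhgc4, with circles, squares and triangles for replicates 1, 2 and 3 and black bars for the group mean and SD (n = 3). The 3 Lhx6-/- libraries lie above all 3 controls for beta, at 58.0 to 62.1 against 47.7 to 54.2 CPM, and for Pcdhgc3 with Pcdhgc4, while the alpha and the gamma A and B sums overlap.

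Within gamma, the sums of the 3 kinds of gene were taken apart. The sum of Pcdhgc3 and Pcdhgc4 was 288, 257 and 290 CPM in controls and 313, 293 and 305 CPM in Lhx6-/-, without overlap, and the log2 fold change of the 3 C-type genes together was 0.13 ± 0.076 (SE). The 12 gamma A genes summed to 52.7, 48.3 and 38.8 CPM in controls and to 59.8, 60.6 and 48.0 CPM in Lhx6-/-, with a log2 fold change of 0.27 ± 0.12 (SE). The 7 gamma B genes summed to 38.3, 30.2 and 24.2 CPM in controls and to 39.2, 37.5 and 33.1 CPM in Lhx6-/-, with 0.24 ± 0.15 (SE). The gamma A and gamma B sums overlapped between the groups and were lowest in control replicate 3, where 11 of the 22 gamma genes had their lowest level. Among the beta genes the lowest library was most often control replicate 2, for 12 of 21. The make-up of the clusters overlapped between the groups: beta was 11.3%, 12.2% and 12.9% of the summed CPM of all members in controls and 12.8%, 12.6% and 13.2% in Lhx6-/-. A difference in response between the beta and gamma clusters was therefore not resolved.

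Of the 52 members, 48 passed the filter on low counts and were tested; Pcdha3, Pcdha4, Pcdha7 and Pcdha9 did not pass. Pcdha2 and Pcdha12 passed only through their Lhx6-/- libraries, so their calls are not counted as support for a direction. All 43 beta and gamma members were tested. Of these, 36 had a higher fitted level in Lhx6-/- and 7 a lower one, and their log2 fold changes had a median of 0.26, while 49.7% of the 20114 genes tested were higher and their median was -0.0019. Because members share reads and neighbouring genes share a locus, they are not independent of each other. The rule of the study's methods, a fold change of 1.5 or more together with p under 0.05 before adjustment, was met by 6 beta and gamma members as higher and by 0 as lower, and by Pcdha2 and Pcdha12 as higher, 8 in all. Over all genes tested 1.58% met it as higher and 1.71% as lower. With at least 10 counts required in every library, 6 members met it as higher and 1, Pcdhga9, as lower, against 1.61% and 1.74% of all genes tested. The number of higher members fell to 4 when either Lhx6-/- replicate 1 or Lhx6-/- replicate 2 was left out. Pcdha2 and Pcdha12 were among the 4 in both fits. Of all genes tested in these fits, 607 of 21008 and 620 of 20857 met the rule in either direction. No member had an adjusted p under 0.05 in edgeR, where 0.403% of all genes did. An unadjusted p under 0.05 was found in 10 of the 48 members and in 9.81% of all genes tested. Among the 43 beta and gamma members it was found in 8. DESeq2 gave 3 members an adjusted p under 0.05 (Pcdha2, Pcdha12 and Pcdhga1) and 1.57% of all genes. In limma voom it was 1 member (Pcdha2) and 0.343% of all genes.

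In 13 of the 48 tested members every Lhx6-/- library was above every control library, and in 0 every Lhx6-/- library was below. The corresponding shares of all genes tested were 7.86% and 7.68%. By cluster the 13 were 2 alpha, 6 beta and 5 gamma genes. The 2 alpha genes were Pcdha2 and Pcdha12, which passed the filter only through their Lhx6-/- libraries. Of the 43 beta and gamma members, 11 were above without overlap and 0 below. Non-overlap is more frequent with fewer libraries, and the number of members tested changed as well. Leaving out control replicate 1 gave 20 of 52 members tested above, and 15.1% of all genes tested. Pcdha2, Pcdha4 and Pcdha12, with remaining control counts of 0, were among these 20. Leaving out Lhx6-/- replicate 3 gave 20 of 50 members, again with Pcdha2 and Pcdha12, and 14.2% of all genes. These counts are therefore not support from beta and gamma members alone. Without control replicate 3, 1 of 51 members tested was below in every Lhx6-/- library, against 11.8% of all genes tested. A comparison of 3 against 3 libraries cannot give an exact two-sided permutation p under 0.1.

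**Figure D3:**
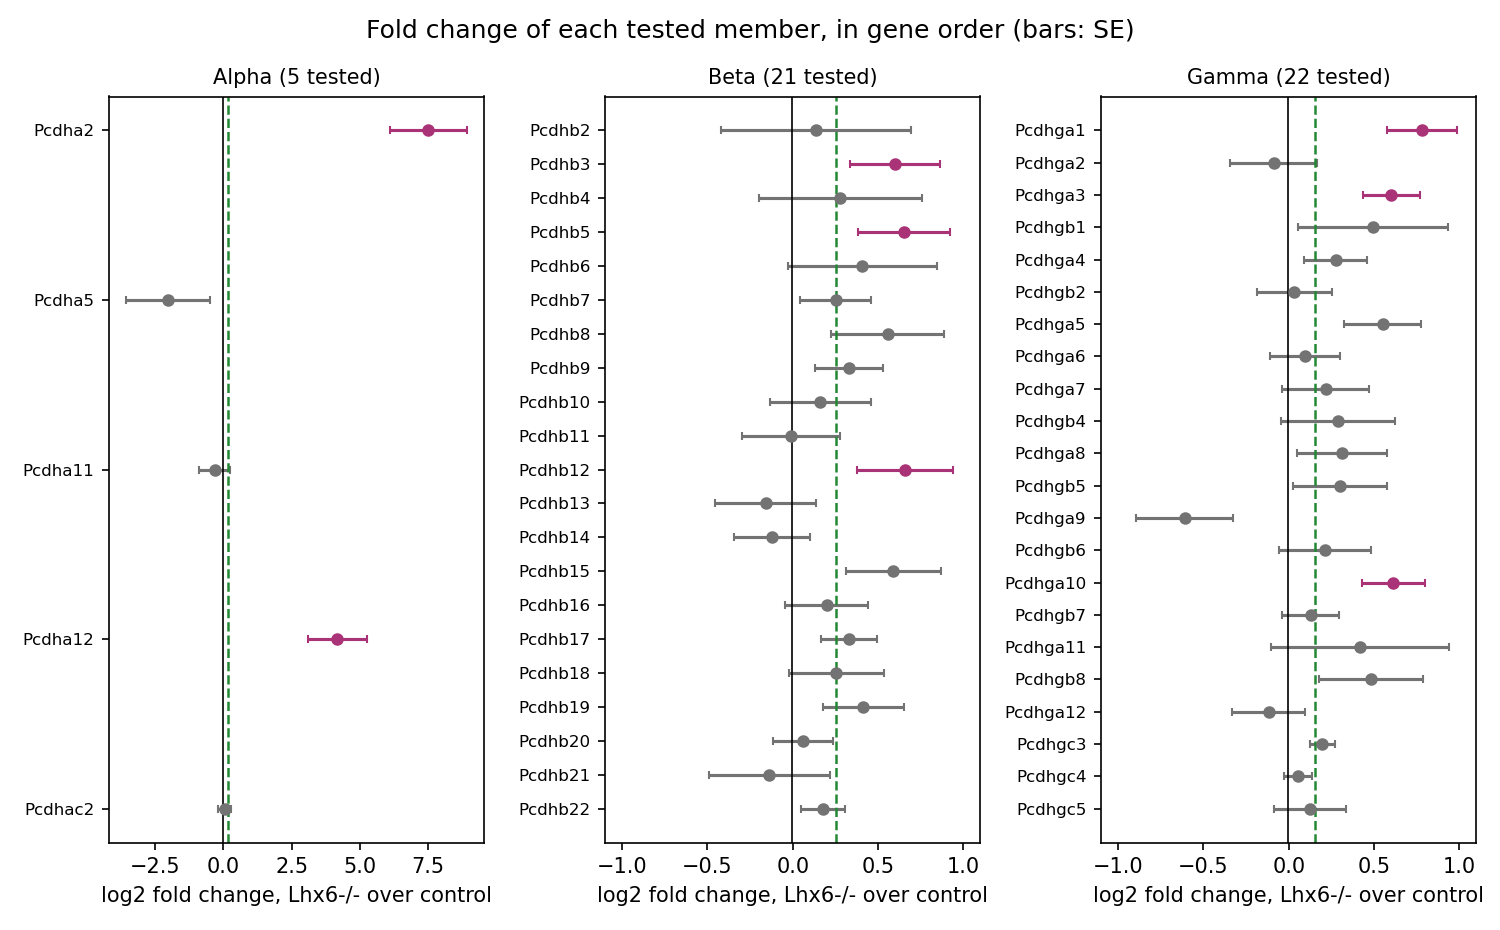
The log2 fold change (Lhx6-/- over control) of each tested member with its SE, in gene order, with a wider axis for the 5 alpha genes than for the 21 beta and 22 gamma genes. Purple points mark the 8 members that met the fold and p rule, the black line is the median of all genes tested (-0.0019) and the dashed green line the value of the cluster's sum.

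Beta protocadherins adhere through their extracellular part as the others do, but lack the constant tail, and their counts could be tied to single genes more closely than those of the other clusters. Of the 21 beta genes, all tested, 17 were higher and 4 lower. Their log2 fold changes ran from -0.16 to 0.66 around a median of 0.26. Those that met the fold and p rule were Pcdhb3, Pcdhb5 and Pcdhb12. Pcdhb12 (chr18:37435621-37438654) had 102, 85 and 83 estimated counts in controls and 179, 158 and 132 in Lhx6-/-, a log2 fold change of 0.66 ± 0.28 (SE, adjusted p = 0.473 in edgeR). Pcdhb5 (chr18:37320381-37323915) had 95, 103 and 69 counts in controls and 161, 153 and 147 in Lhx6-/-, a log2 fold change of 0.65 ± 0.27 (SE, adjusted p = 0.45 in edgeR). Pcdhb3 (chr18:37300799-37304585) had 93, 81 and 105 counts in controls and 141, 150 and 183 in Lhx6-/-, a log2 fold change of 0.60 ± 0.26 (SE, adjusted p = 0.488 in edgeR). In all 3 the groups did not overlap. Each of these calls was lost in some alternatives. Pcdhb3 kept it in only 1 of the 6 fits with a library left out, that without control replicate 3, and lost it with a replicate block. Pcdhb12 lost it in limma voom and when control replicate 2 or 3 or Lhx6-/- replicate 1 or 2 was left out. Pcdhb5 lost it when control replicate 3 or Lhx6-/- replicate 1 was left out, and with the Y-linked level as a covariate.

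The 3 most abundant beta genes did not meet the rule. Pcdhb22 (chr18:37517871-37524479) was at 7.59 ± 0.65 CPM in controls and 8.57 ± 0.17 CPM in Lhx6-/- (SD, n = 3 each). Its log2 fold change was 0.18 ± 0.13 (SE), short of the rule, although its groups did not overlap. Pcdhb17 was at 4.75 ± 0.66 and 5.96 ± 0.045 CPM (SD, n = 3 each), with a log2 fold change of 0.33 ± 0.16 (SE), and again no overlap. Pcdhb20 was at 4.92 ± 0.72 and 5.11 ± 0.50 CPM (SD, n = 3 each), a difference within the spread of the libraries, and its fitted sign turned without control replicate 2 or without Lhx6-/- replicate 3. Pcdhb9 was the remaining beta gene without overlap, at a log2 fold change of 0.33. Pcdhb13 had the lowest value of the cluster, -0.16 ± 0.29 (SE), from 78, 106 and 111 counts in controls and 74, 125 and 99 counts in Lhx6-/-.

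Gamma A and gamma B genes encode different extracellular parts on the same tail. Of the 12 gamma A genes 9 were higher and 3 lower, and of the 7 gamma B genes 7 were higher. The median log2 fold change was 0.29 for either kind. All 3 gamma members that met the fold and p rule were gamma A genes. Pcdhga1 (chr18:37661793-37841873), the first of the cluster, had 129, 173 and 120 counts in controls and 233, 304 and 268 in Lhx6-/-, a log2 fold change of 0.78 ± 0.21 (SE, adjusted p = 0.199 in edgeR). Pcdhga10 had 257, 269 and 206 counts in controls and 392, 498 and 350 in Lhx6-/-, a log2 fold change of 0.61 ± 0.19 (SE, adjusted p = 0.264 in edgeR). Pcdhga3 had 265, 378 and 300 counts in controls and 475, 625 and 489 in Lhx6-/-, a log2 fold change of 0.60 ± 0.17 (SE, adjusted p = 0.219 in edgeR). None of these genes overlapped between the groups, and all 3 no longer met the rule with the Y-linked level as a covariate. Pcdhga3 and Pcdhga10 also lost the call when Lhx6-/- replicate 1 or 2 was left out, as did Pcdhga3 without control replicate 1 and Pcdhga10 without control replicate 3.

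Pcdhga5 fell just short of the rule at a log2 fold change of 0.55 ± 0.23 (SE), from 265, 158 and 201 counts in controls and 261, 402 and 372 in Lhx6-/-. After scaling, its groups did not overlap. Pcdhga9 (chr18:37736936-37841870) was the gamma gene with the lowest fold change. It had 273, 260 and 133 counts in controls and 169, 180 and 128 in Lhx6-/-, and its log2 fold change was -0.61 ± 0.28 (SE, adjusted p = 0.513 in edgeR). It did not meet the rule, with an unadjusted p of 0.0512 in edgeR, but met it in DESeq2, and the groups overlapped through control replicate 3. Pcdhgb6, the most abundant gene of the gamma A and B kinds, was at 691, 440 and 309 counts in controls and 669, 596 and 569 in Lhx6-/-, with a log2 fold change of 0.21 ± 0.27 (SE). The control libraries of this gene alone spanned more than the difference between the groups. Between the share of 75-base words held by other members and the log2 fold change, Spearman's rho was 0.14 over the 19 gamma A and B genes, given as a description.

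The C-type genes, which neurons are known to transcribe without the choice seen for the others, did not meet the rule. Pcdhgc3 had 9031, 8561 and 7700 counts in controls and 9792, 11107 and 11386 in Lhx6-/-. Scaled, it was at 134 ± 9.26 CPM in controls and 154 ± 5.65 CPM in Lhx6-/- (SD, n = 3 each) with no overlap. Its log2 fold change was 0.20 ± 0.073 (SE, adjusted p = 0.382 in edgeR), below the 1.5-fold limit, and it stayed between 0.16 and 0.29 under all 14 alternative fits. Pcdhgc4 was at 144 ± 15.9 CPM in controls and 149 ± 4.98 CPM in Lhx6-/- (SD, n = 3 each), a log2 fold change of 0.055 ± 0.084 (SE), and its sign turned without control replicate 2. Pcdhgc5 was at 5.54 ± 1.26 and 6.03 ± 1.28 CPM (SD, n = 3 each), and Pcdhac2 at 3.63 ± 0.73 and 3.75 ± 1.01 CPM (SD, n = 3 each). The differences of both genes were within the spread of the libraries, and both signs depended on single libraries.

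The alpha genes other than Pcdhac2 were near the limit of detection. Their estimated counts summed to 64, 116 and 174 in the control libraries and to 169, 229 and 106 in the Lhx6-/- libraries, which is 1.90 ± 0.97 against 2.42 ± 0.88 CPM (SD, n = 3 each) and overlapped. Which of the 8 genes held these counts differed from library to library. Control replicate 1 had counts in Pcdha11 and Pcdha12 only, and control replicate 3 in Pcdha5, Pcdha9 and Pcdha11. Pcdha9, for instance, had 67 counts in control replicate 3 and 31 in Lhx6-/- replicate 3 and was listed at 0 in the other libraries. Pcdha3 had 17 counts in control replicate 2 and 57 in Lhx6-/- replicate 2 and was listed at 0 elsewhere.

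Pcdha2 and Pcdha12 met the fold and p rule, but entered the test only through the counts of their Lhx6-/- libraries. Pcdha2 (chr18:36939205-37187657) was listed at 0 in all 3 controls and had 29, 15 and 26 counts in Lhx6-/-. Pcdha12 (chr18:37020149-37187657) had 4, 0 and 0 counts in controls and 23, 42 and 23 in Lhx6-/-. Pcdha4, which was not tested, was listed at 0 in the controls and had 35, 19 and 8 counts in Lhx6-/-. No bound on the fold change is given for these 3 genes, since their control values rest on estimates at or near 0. The fitted values plotted for Pcdha2 and Pcdha12 depend on the prior count of the fit. Pcdha5 had the lowest fitted value of the alpha genes, -2.03 ± 1.53 (SE, adjusted p = 0.758 in edgeR), from 0, 18 and 63 counts against 17, 0 and 4. Pcdha11 was at 0.92 ± 0.16 and 0.74 ± 0.55 CPM (SD, n = 3 each), overlapped, and turned its sign without Lhx6-/- replicate 3. Of the 75-base words of Pcdha2, 52.3% also occur in Pcdha12 and 52.0% in Pcdhac2, and an estimated 0 may be a failed estimate. How far the division of shared reads set these low counts was not tested.

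**Figure D4:**
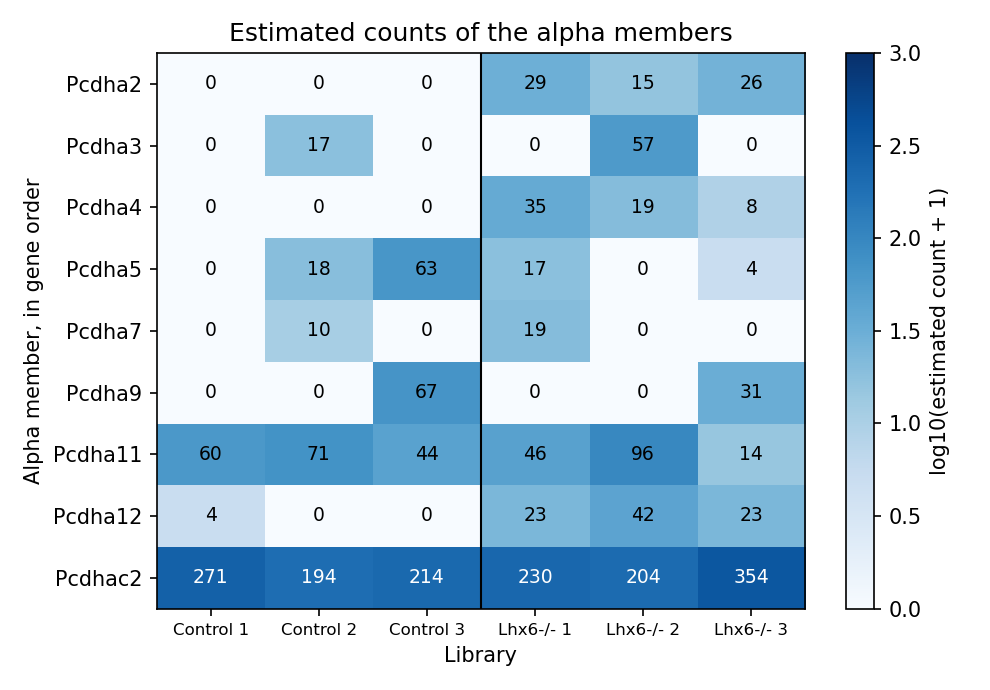
Estimated counts (rounded) of the 9 alpha members in gene order, with a column for each of the 3 control and 3 Lhx6-/- libraries and colour by log10(estimated count + 1). Pcdhac2 holds 194 to 354 counts in every library, while Pcdha2 and Pcdha4 round to 0 in all controls and hold 8 to 35 counts in each Lhx6-/- library.

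A list of genes known to act on this locus held CTCF, which binds the promoters of variable exons and enhancers, the cohesin complex with its loader and release factors, DNA methyltransferases, the TET enzymes, the SETDB1 and EHMT histone methyltransferase complexes and SMCHD1, which is known to silence clustered protocadherins. Of the 29 genes tested, 0 met the fold and p rule in edgeR in either direction, as in DESeq2 and limma voom. Their median log2 fold change was 0.050, and Dnmt3b was the only 1 with an unadjusted p under 0.05. Ctcf was at 45.9, 50.7 and 47.6 CPM in controls and 46.4, 43.9 and 46.6 CPM in Lhx6-/-, with a log2 fold change of -0.076 ± 0.072 (SE). Smchd1 was at 28.0, 26.1 and 25.0 CPM in controls and 28.2, 28.8 and 27.5 CPM in Lhx6-/-. Dnmt3b, a de novo methyltransferase that acts on these promoters, was at 4.10, 3.89 and 4.29 CPM in controls and 4.84, 5.20 and 6.13 CPM in Lhx6-/-, a log2 fold change of 0.40 ± 0.17 (SE, adjusted p = 0.478 in edgeR) without overlap.

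Among 30 genes for signalling and processing partners, which hold the kinases bound by the constant tails, the ADAM10 and gamma-secretase proteases that cut the proteins, and the WAVE complex, 1 met the rule as higher and 0 as lower. Their median log2 fold change was 0.0072. It was Nlgn3, a neuroligin at synapses, at 3.44, 2.56 and 4.55 CPM in controls and 7.23, 6.12 and 4.99 CPM in Lhx6-/-, with a log2 fold change of 0.80 ± 0.23 (SE, adjusted p = 0.233 in edgeR).

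The non-clustered protocadherins, which are encoded elsewhere except for Pcdh1 and Pcdh12 farther along the same chromosome, were examined beside them. Their sum was at 134, 133 and 134 CPM in controls and at 163, 146 and 157 CPM in Lhx6-/-, without overlap, as for the beta and gamma sums. Of 13 tested, 8 were higher and 5 lower, 2 met the rule as higher and 1 as lower, and the median log2 fold change was 0.13. An unadjusted p under 0.05 in edgeR was found in 6 of the 13, against 9.81% of all genes tested. Pcdh10 was the only protocadherin of either kind with an adjusted p under 0.05 in edgeR. It had 287, 170 and 196 counts in controls and 780, 683 and 646 in Lhx6-/-, a log2 fold change of 1.55 ± 0.23 (SE, adjusted p = 0.0178 in edgeR). Its adjusted p was 0.122, 0.0804 and 0.0657 in edgeR without control replicate 3, Lhx6-/- replicate 1 and Lhx6-/- replicate 2. Pcdh15 was at 0.787, 0.614 and 0.592 CPM in controls and 1.41, 1.38 and 0.954 CPM in Lhx6-/-, with a log2 fold change of 0.91 ± 0.36 (SE, adjusted p = 0.425 in edgeR). Pcdh8 was at 2.07, 1.30 and 0.795 CPM in controls and 0.344, 0.671 and 0.484 CPM in Lhx6-/-, with a log2 fold change of -1.47 ± 0.45 (SE, adjusted p = 0.264 in edgeR). In all 3 of these genes the groups did not overlap.

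The genes around and between the clusters, within 500 kb of the first and last member, showed no common shift. Of 40 tested, 21 were higher and 19 lower, the median log2 fold change was 0.020, and Eif4ebp3, which encodes a translation repressor, was the only gene to meet the rule. Eif4ebp3 was lower, at 1.09, 2.32 and 1.5 CPM in controls and 0.917, 0.631 and 0.255 CPM in Lhx6-/-, with a log2 fold change of -1.45 ± 0.47 (SE, adjusted p = 0.295 in edgeR). Eif4ebp3 lies within the span of Maskbp3 on the same strand. Maskbp3 was at 27.1 ± 1.15 CPM in controls and 28.7 ± 2.88 CPM in Lhx6-/- (SD, n = 3 each). How far reads were divided between Eif4ebp3 and Maskbp3 was not tested. Taf7, a general transcription factor gene between the beta and gamma clusters, was at 11.0, 11.5 and 8.35 CPM in controls and 7.48, 10.1 and 11.7 CPM in Lhx6-/-, and overlapped. Diaph1, just past the last gamma gene, had a log2 fold change of 0.040 ± 0.092 (SE).

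The tissue held several cell types, and in bulk RNA fewer cells of a type and less RNA per cell cannot be told apart. The 5 odontoblast genes summed to 72351 to 93152 CPM, and the sums overlapped between the groups. Most of the sum was Col1a1, at 64844 to 85297 CPM. Dspp was at 4731, 4384 and 4283 CPM in controls and at 5367, 5457 and 5992 CPM in Lhx6-/-, without overlap. Bglap was lower without overlap. Of the 5 genes, 4 had a higher fitted value and 1 a lower one, and 0 met the rule. The 8 dental mesenchyme markers summed to 483, 444 and 467 CPM in controls and to 509, 487 and 491 CPM in Lhx6-/-, without overlap, with 7 of 8 at a higher fitted value and 0 that met the rule. The 8 endothelial markers, defined by Pecam1 and Cdh5, were higher in sum in every Lhx6-/- library, at 292 to 304 CPM in controls and 338 to 392 CPM in Lhx6-/-, as were the beta and gamma sums; 8 of 8 had a higher fitted value, and Cldn5 met the rule. The 8 dental epithelial markers were lower in sum, at 1137 to 1766 CPM in controls and 796 to 916 CPM in Lhx6-/-, and 5 of 8 met the rule as lower. The 9 neuronal markers summed to 32.3 to 34.8 CPM in controls and to 25.6 to 27.8 CPM in Lhx6-/-. Of these, 3 of the 7 tested met the rule as lower (Nefm, Rbfox3 and Snap25), and Elavl3 was at 0 to 12 counts in every library. Snap25 overlapped, at 0.739, 2.66 and 0.693 CPM in controls and 0.737, 0.577 and 0.349 CPM in Lhx6-/-. By fitted value 6 were lower and 1, Prph, was higher. Prph was at 0.980, 0.793 and 0.507 CPM in controls and 1.29, 1.07 and 1.09 CPM in Lhx6-/-, without overlap. The 9 Schwann cell markers overlapped, at 199 to 548 CPM in controls and 228 to 543 CPM in Lhx6-/-, and Foxd3 and Cdh19 met the rule as higher. The part of these markers in the differences of the protocadherin sums was not tested. Among the Lhx6-/- libraries, replicate 1 had the highest beta sum (62.1 CPM), the highest gamma sum (418 CPM) and the highest endothelial sum (392 CPM), and it was also the one with Xist at 290 CPM. Its sums were highest too for dental mesenchyme (509 CPM), odontoblast genes (92314 CPM) and non-clustered protocadherins (163 CPM). They were not highest for Schwann cell, neuronal or dental epithelial markers. Among the controls, replicate 1 had the highest gamma sum (384 CPM) and the lowest endothelial sum (292 CPM).

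**Figure D5:**
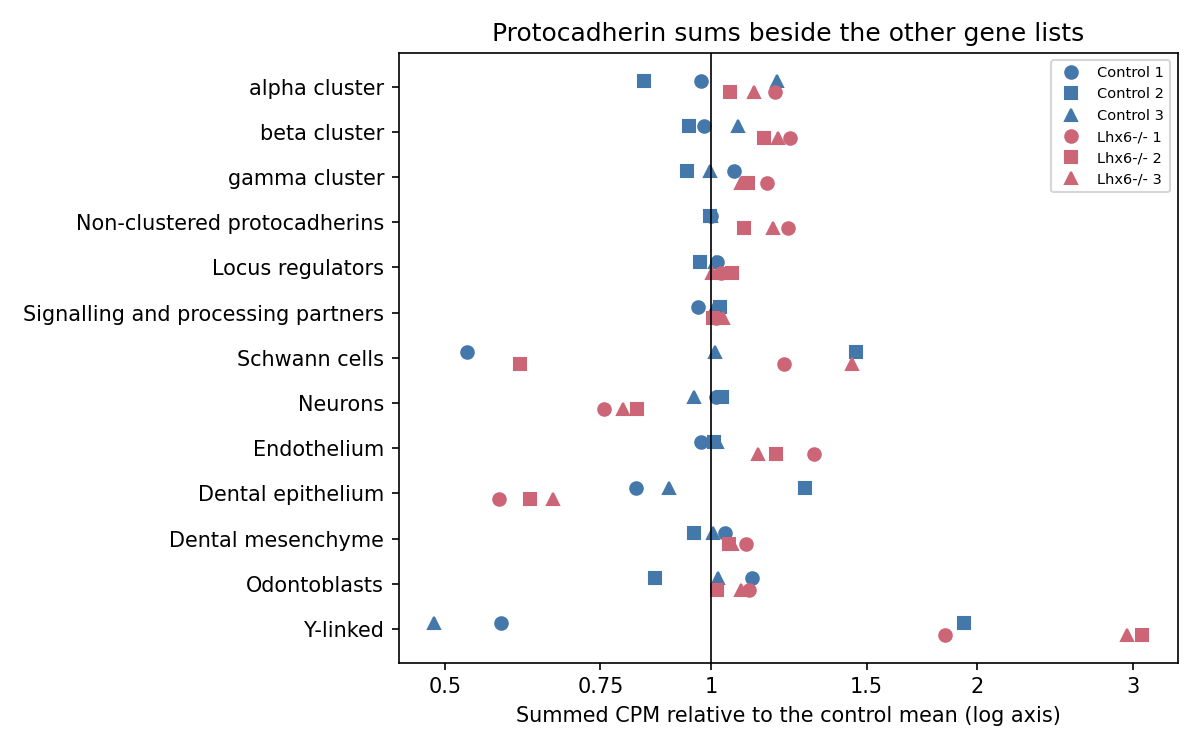
Summed CPM of the 3 clusters and of the other gene lists in each library, relative to the mean of the 3 controls, on a log axis. The Lhx6-/- libraries lie at 1.15 to 1.23 for beta, 1.08 to 1.16 for gamma and 1.09 to 1.22 for the non-clustered protocadherins. They lie at 1.13 to 1.31 for the endothelial markers, 0.576 to 0.663 for the dental epithelial markers and 1.84 to 3.07 for the Y-linked genes.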

How the data were processed

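RNA from laser-captured FDR tissue of 3 control and 3 Lhx6-/- pools was sequenced. The authors aligned the reads with STAR 2.6.1d to mm10 and quantified genes in Partek, and deposited estimated counts per gene, with the counter and annotation not given in the sources used here. The deposited gene table also holds group means, used only to check the order of the genes, and the authors' own fold changes and p-values, which were not used. Counts were rounded, scaled by TMM (factors 0.977 to 1.04) and filtered with filterByExpr, and 20114 of 23594 genes were fitted with edgeR 4.0.16 (quasi-likelihood, two-sided, Benjamini-Hochberg over all genes tested; R 4.3.3), after a test of the code on simulated data. For the sums, cluster totals replaced the members in the same fit. DESeq2 1.42.0 and limma 3.58.1 were among 14 alternative fits. Words of 75 bases and exon lengths came from GENCODE vM21. The members and lists were chosen with earlier results of these data known. Named genes were Lhx6, members meeting the fold and p rule, C-type members, the 3 most abundant members and the highest and lowest fold change of each cluster, and list genes meeting the rule; any other gene named was chosen after its values were seen. The p-values measure the spread between pools. No nucleotide or protein sequence of this locus is printed.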

Additional observations from a re-analysis of the deposited data

How the results depend on the processing

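The 14 alternative fits left the sign of all 3 cluster sums as given. With the Y-linked level as a covariate the log2 fold change moved by more than the spread between replicates, to 0.50 for alpha, 0.38 for beta and 0.27 for gamma. Leaving out each library in turn gave 0.050 to 0.30 for alpha, 0.21 to 0.31 for beta and 0.11 to 0.20 for gamma. Members meeting the fold and p rule as higher numbered 8, and 4 to 11 with a library left out. At a fold limit of 2 they numbered 2, Pcdha2 and Pcdha12, and included no beta or gamma gene. These 2 alpha genes passed the filter only through their Lhx6-/- libraries, and they are also in each count with a library left out. Over all genes, 607 of 21008 to 968 of 21047 met the rule in either direction with a library left out. Lower members numbered 0 to 1 with a library left out, and 1 with DESeq2, 1 without the filter on low counts and 1 with at least 10 counts in every library. Members with an adjusted p under 0.05 numbered 0 in edgeR, also with each library left out (0 to 0), against 3 in DESeq2 and 1 in limma voom. Members with all Lhx6-/- libraries above the controls numbered 14 to 20 with a library left out, always with Pcdha2 and Pcdha12 among them. Members with all below numbered 0 to 1. Those fits tested 49 to 52 members. The signalling list had 2 genes meeting the rule with the Y-linked covariate and 1 to 2 with a library left out. The neighbours had 2 with the stricter filter, 2 with the Y-linked covariate and 0 to 2 with a library left out. The non-clustered list had 2 to 3 and the locus regulators 0 to 0. With a library left out in turn, the sign turned for Pcdha11 (-0.98 to 0.15, positive without Lhx6-/- replicate 3), for Pcdhac2 (-0.16 to 0.24) and Pcdhb20 (-0.052 to 0.15), each negative without control replicate 2 (-0.086 and -0.052) or Lhx6-/- replicate 3 (-0.16 and -0.024), for Pcdhgc4 (-0.018 to 0.14, negative without control replicate 2), and for Pcdhgc5 (-0.0074 to 0.32, negative without control replicate 2, -0.0025, or Lhx6-/- replicate 2). The cause was not tested. Of the other 353 values of named genes, 317 kept their direction and their side of the rule.

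The paper's methods speak of littermate mutants and of pairs of samples, but the labels do not say which libraries form a pair. In the authors' own sample names the mutants carry other numbers than in the labels. The replicate numbers of the labels were taken as names only, since same-numbered libraries did not deviate together (correlations of 0.026, -0.029 and -0.031). Over every pairing of a control with an Lhx6-/- library the correlations ran from -0.064 to 0.095. The replicate block used the pairing by label numbers only. With it, 7 members met the rule as higher and 0 as lower, and 0 had an adjusted p under 0.05 in edgeR. Pcdhb3 no longer met the rule, and the sums stood at 0.17 for alpha, 0.25 for beta and 0.16 for gamma. Depth limits the alpha genes most: their estimated zeros may be failed estimates, and the SE of their log2 fold changes had a median of 1.09, against 0.28 for beta and 0.22 for gamma genes.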
